A study of Mus musculus with 6 samples.

Results

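Thyroid hormone reaches the brain mainly as thyroxine (T4), enters cells through transporters, is turned into the active form T3 by a deiodinase, and acts through nuclear receptors that switch target genes. Astrocytes are the brain cells known for the activation step, since they carry the type 2 deiodinase and pass T3 on to neurons. The 7 genes described here follow that route: the organic anion transporters Slco1c1 and Slco1a4, the activating deiodinase Dio2, the inactivating deiodinase Dio3, the receptors Thra and Thrb, and Thrsp, a hormone-responsive gene of fat synthesis. Of the 7, 6 had at least 1 probe set listed under their current or a former symbol, with 12 probe sets in all among the 45037 analysed. Dio3 had none and was not analysed here. A probe set is a group of short oligonucleotides on the array that together report 1 transcript.

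RNA came from cerebellar astrocytes, measured on 3 arrays, and from neocortical astrocytes of the mouse, also on 3 arrays. Only the neocortical labels give a strain, ICR, an outbred stock, so strain and region cannot be told apart if the cerebellar cells came from another stock. The labels used here name no genotype, treatment, age or method of isolation or culture, and do not say whether the arrays of a group came from separate animals, so the p-values measure the spread between these arrays, which may be partly technical. Because the RNA is from bulk samples, fewer cells of a type and less RNA per cell cannot be told apart.

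Spearman correlations of signal ran from 0.932 to 0.938 among cerebellar arrays, 0.942 to 0.945 among neocortical arrays and 0.922 to 0.933 across regions. The 3′ to 5′ ratio of the Gapdh control, a gauge of RNA integrity, was 0.913 to 1.07 on cerebellar and 0.865 to 0.883 on neocortical arrays, without overlap. Astrocyte markers were bright in both groups. The gap junction gene Gja1 read 39421 to 68006 on cerebellar and 51062 to 65826 on neocortical arrays. Among the 12 markers, 4 passed as lower on the cerebellar side (7.51% of all genes did) and 1 as higher (5.44%). Those passing as lower included Glul, Slc1a3 and Aldoc, each 1.74-fold to 1.76-fold lower, though Slc1a3 with 1 of its 6 probe sets only. The higher one was Aqp4, the water channel gene. Gfap was 2.16-fold lower without overlap but did not pass by its brightest probe set (limma adjusted p = 0.0646). Only 2 of its 3 tested probe sets shared this call. At an unadjusted p under 0.05 in limma, 6 of the 12 were lower and 2 higher. The astrocyte sum was 163596 to 233727 on cerebellar and 225819 to 273016 on neocortical arrays, with overlap. The part of astrocyte content in the lower Slco1c1 signal was not tested. Markers of other cells were present on arrays of both groups. Of the meningeal fibroblast markers 1 of 11 tested was lower (Ogn, 5.43-fold), and the brightest, Col3a1 and Col1a2, did not pass. The list median log2 difference was 0.60, toward the cerebellar side. At an unadjusted p under 0.05 in limma, 1 was lower and 1 was higher (Col1a1, 1.91-fold, without overlap, adjusted p = 0.068). The meningeal sum was 57828 to 273554 on cerebellar and 93104 to 141953 on neocortical arrays. Of the mural markers 1 of 5 was lower (Acta2, 1.3-fold), 1 was higher (Vtn, 2.39-fold), and the bright Tagln did not pass. The mural sum was 118777 to 147869 on cerebellar and 160508 to 184743 on neocortical arrays, without overlap. Of the neuronal markers 2 of 6 were lower (Gad1, 3.55-fold, and Syt1, 1.59-fold), while the brightest, Stmn2, did not pass. The cerebellar mean of Gad1 and the neocortical mean of Vtn were no brighter than the brightest bacterial control (269.2, the top of the dim range), which leaves both folds uncertain in size. Of the oligodendrocyte markers 1 of 5 was lower (Olig1, 3.33-fold), and the brightest, Cnp, did not pass. None of 9 microglial markers passed by limma, and none did so at an unadjusted p under 0.05. The brightest of these were Tyrobp and C1qa. The neuronal sum was 8236 to 20526 on cerebellar and 11075 to 15246 on neocortical arrays, the oligodendrocyte sum 52399 to 81877 and 70568 to 82143, and the microglial sum 4252 to 23591 and 7525 to 20949, each with overlap. The part of these cells in the results on members was not tested.

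**Figure D1:**
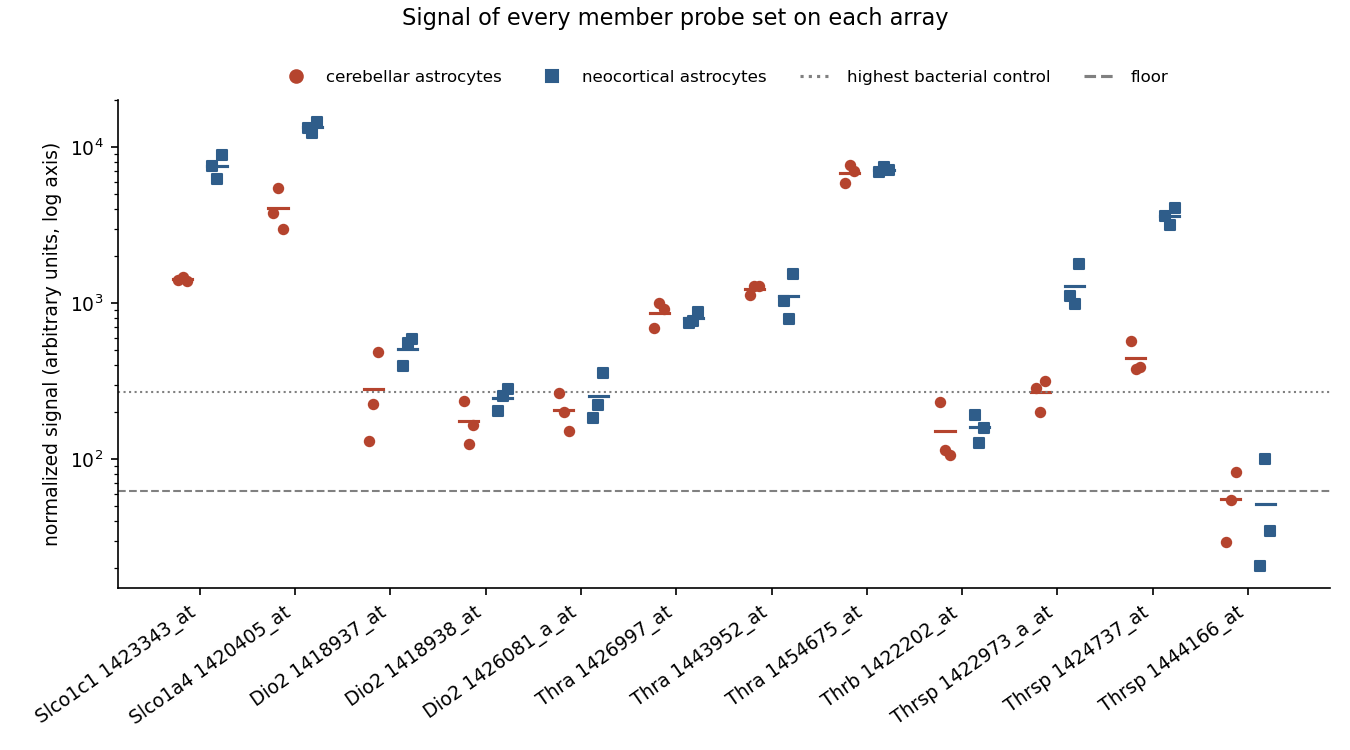
Quantile-normalized signal (arbitrary units, log axis) of the 12 probe sets of the 6 measured genes on each of the 3 cerebellar (circles) and 3 neocortical arrays (squares), with the group mean as a bar. The Slco1c1 and Slco1a4 probe sets and 2 of 3 Thrsp probe sets lie lower on every cerebellar array, the Thra probe sets lie side by side, and the Thrb points lie below the brightest bacterial control (dotted line, 269.2). Of Dio2, 1418937_at lies above that line on all 3 neocortical arrays and on cerebellar array 3. The dashed line is the floor.

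The transporter genes Slco1c1 and Slco1a4 and the hormone-responsive gene Thrsp were 3.36-fold to 8.25-fold lower in cerebellar astrocytes, while the 3 probe sets of Thra differed by at most 0.20 on the log2 scale and did not pass. Among the 10 member probe sets tested, 4 were lower in cerebellar astrocytes (5.85% of all 26815 probe sets tested were lower), and none was higher (4.99% of all were higher). At an unadjusted p under 0.05 in the same limma fit, 5 of the 10 were lower and none was higher, against 13.1% and 13.2% of all probe sets tested. The 4 past the adjusted threshold were the ones whose groups did not overlap, against 32.5% of all probe sets tested. The other 2 of the 12 probe sets, that of Thrb and the dimmest of Thrsp, were below the filter on mean signal and left out of the test. A probe set passed the test at a Benjamini-Hochberg adjusted p under 0.05.

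Slco1c1 encodes a high-affinity thyroxine transporter that marks astrocytes and the capillaries of the brain. Its probe set 1423343_at, on chromosome 6, read 1409, 1466 and 1391 on the cerebellar arrays, against 7533, 6249 and 8968 on the neocortical arrays. The cerebellar arrays lay close together and far below the lowest neocortical array. Group means were 1422 ± 39.3 on the cerebellar side and 7583 ± 1361 on the neocortical side (SD, n = 3 each). The log2 difference was -2.40 ± 0.14 (SE), a 5.28-fold lower signal with a 95% interval of 4.23-fold to 6.59-fold (limma adjusted p = 4.2e-05). By the size of its drop it ranked 93 of the 26815 probe sets tested.

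Slco1a4 encodes a transporter of wide specificity that carries bile acids, steroid conjugates and thyroid hormones, and is known from the blood-brain barrier of rodents. Its probe set 1420405_at read 3811, 5514 and 2984 on the cerebellar arrays, against 13329, 12330 and 14537 on the neocortical arrays. The groups did not overlap, and the cerebellar arrays were the more scattered on a relative scale. Group means were 4103 ± 1290 on the cerebellar side and 13399 ± 1105 on the neocortical side (SD, n = 3 each). The signal was 3.36-fold lower in cerebellar astrocytes, with a 95% interval of 2.47-fold to 4.58-fold and a log2 difference of -1.75 ± 0.20 (SE, limma adjusted p = 0.000952).

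Both transporter genes are also expressed by cells that may be mixed with astrocytes, and markers of those cells were measured on the same arrays. Of 13 brain endothelial markers, 9 had a mean in the dim range, and Pecam1 and Tie1 were at the floor on all 6 arrays. Cldn5, the tight junction gene of these capillaries, read 61.3 to 136.9 on cerebellar and 191.9 to 242.8 on neocortical arrays. Its groups did not overlap, but both were within the dim range. The receptor gene Kdr was 2.96-fold lower in cerebellar astrocytes (422.2 ± 49.9 against 1269 ± 324, SD, n = 3 each, limma adjusted p = 0.00297) and was the only 1 of 4 tested endothelial markers to pass. Eng, the next brightest, did not pass, nor did Cdh5 and Esam. Cdh5 read 199.9 to 1446 on cerebellar and 447.1 to 642.4 on neocortical arrays, with overlap. The median log2 difference of the 4 tested was 0.21. The endothelial markers summed to 2155 to 4697 on cerebellar and 3356 to 4289 on neocortical arrays, with overlap.

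Choroid plexus and ependymal markers summed to 8709 to 15366 on cerebellar arrays and to 17129 to 19926 on neocortical arrays, without overlap. Of 7 tested, Otx2 (12.1-fold) and Folr1 (4.19-fold) were lower in cerebellar astrocytes and none was higher. The cerebellar mean of Otx2, 150.5, lay in the dim range, so the size of its fold is uncertain. The brightest of the list, Foxj1, did not pass. Kl and Kcne2, 2 defining markers of the choroid plexus, had means in the dim range, with no array above 140.3. Ttr, the abundant carrier of thyroid hormone that the choroid plexus secretes and also a gene of the binding list, was named after its values were seen. It read 341.6, 547.3 and 501.1 on the cerebellar arrays, against 1301, 1379 and 175.5 on the neocortical arrays, with overlap, and did not pass (limma adjusted p = 0.644). The part of either cell type in the lower Slco1c1 and Slco1a4 signal was not tested.

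The Slco1 genes form a cluster on chromosome 6. In the RefSeq gene order the coding genes ran Slco1c1, Slco1b2, Gm5724, Slco1a4, Slco1a1, Gm6614, Slco1a6 and Slco1a5. Slco1a5, the last of them and a close relative of Slco1a4, read 6119, 3738 and 4538 on the cerebellar arrays with its probe set 1449203_at, against 2896, 2472 and 2615 on the neocortical arrays. Every cerebellar array was thus above every neocortical array. The cerebellar signal was 1.77-fold higher, at a log2 difference of 0.82 ± 0.17 (SE, limma adjusted p = 0.0192). This call was lost in 6 of 17 alternatives: with each array scaled by its median (log2 difference 0.66, adjusted p = 0.0548), with no filter (0.1164), with no variance trend (0.0678), and without neocortical replicate 1 (0.051), 2 (0.0777) or 3 (0.0777). A second probe set of Slco1a5 read at most 405.8 on any array and was not tested. All 5 probe sets of Slco1b2, both of Slco1a1 and that of Slco1a6 were also below the filter, at no more than 262.4 on any array. Cross-hybridization between these related transcripts was not tested.

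**Figure D2:**
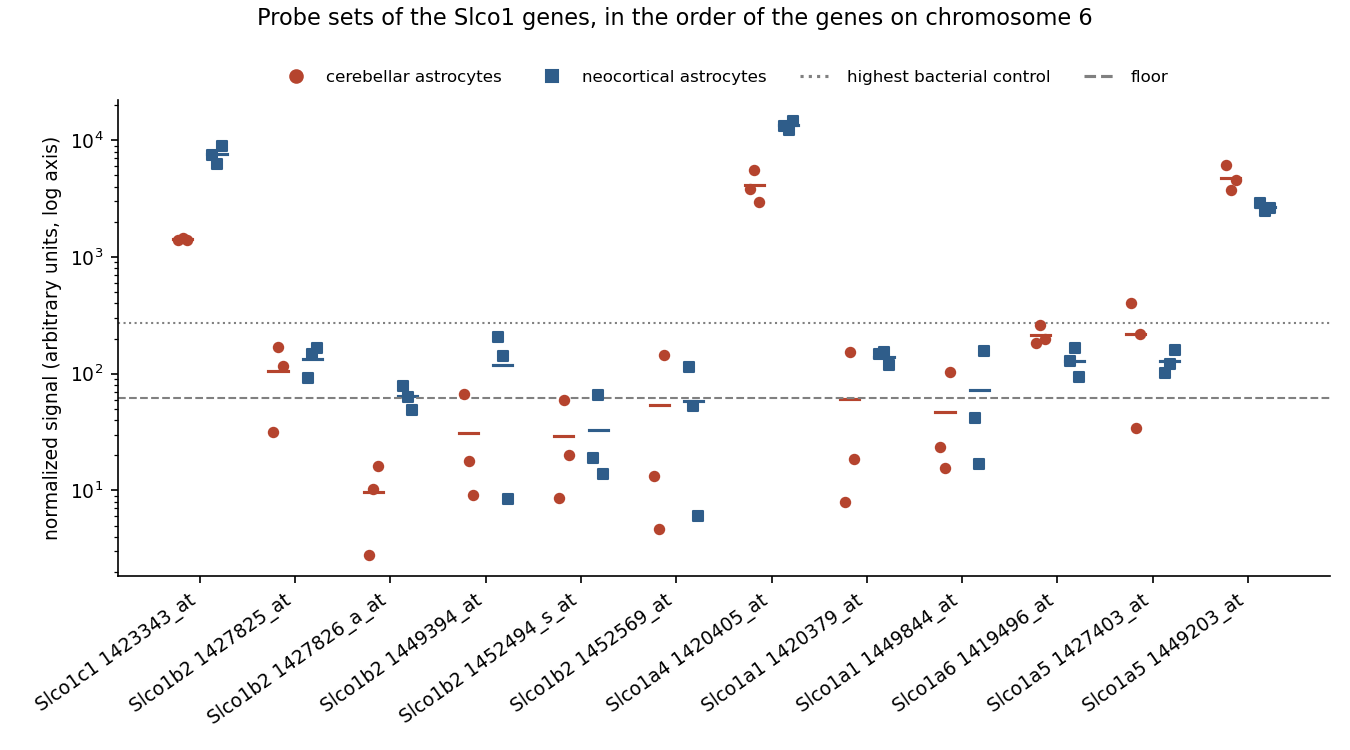
Normalized signal (arbitrary units, log axis) of every probe set of 6 Slco1 genes on the 3 cerebellar (circles) and 3 neocortical arrays (squares), in gene order along chromosome 6, with group means as bars. Slco1c1 and Slco1a4 lie lower and Slco1a5 1449203_at lies higher on every cerebellar array, and the probe sets of Slco1b2, Slco1a1 and Slco1a6 lie below the brightest bacterial control (dotted line). The dashed line is the floor.

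The sequences before the starts of the pair and of Slco1a5 are shown because Slco1c1 and Slco1a4 were lower and Slco1a5 was higher in cerebellar astrocytes. They come from RefSeq (GRCm38.p6), run from 250 to 101 bases before the annotated start, and are written 5′ to 3′ on the gene's strand. Capitals mark the longest run that the 250 bases before Slco1c1 and Slco1a4 have in common, and its nearest match before Slco1a5.
Slco1c1, chr6:141524104-141524253, plus strand: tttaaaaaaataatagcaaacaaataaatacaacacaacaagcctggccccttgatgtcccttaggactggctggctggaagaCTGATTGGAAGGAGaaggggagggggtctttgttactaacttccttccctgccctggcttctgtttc
Slco1a4, chr6:141856321-141856470, minus strand: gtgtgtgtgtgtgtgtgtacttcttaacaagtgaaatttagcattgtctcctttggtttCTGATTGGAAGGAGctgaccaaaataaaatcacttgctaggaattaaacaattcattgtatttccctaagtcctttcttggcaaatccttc
Slco1a5, chr6:142278975-142279124, minus strand: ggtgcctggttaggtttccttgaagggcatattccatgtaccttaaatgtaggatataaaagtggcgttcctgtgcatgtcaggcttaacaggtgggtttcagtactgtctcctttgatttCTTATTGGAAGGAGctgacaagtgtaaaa

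The 14 bases CTGATTGGAAGGAG began 167 bases before the start of Slco1c1 and 191 bases before that of Slco1a4. Searched on both strands of the 250 bases before each of 32851 annotated starts, they occurred in these 2 windows and in no other (0.00609% of windows). The run was picked because these 2 windows share it, so its presence in both was fixed in advance. Any given run of 14 bases is rare in windows of this length, so this count cannot show that the run is particular to these genes. The Slco1a5 window is that of 1 of its 2 annotated starts, and its nearest match differed from the run by G3T, with positions counted from 1 at the 5′ end of the run. It was 1 of 14 windows whose best match had 1 mismatch. In the printed bases the likeness of Slco1a4 and Slco1a5 ran on past the capitals, with CTGAC directly after them in both but not in Slco1c1. Slco1a4 also had a run of 20 bases in common with at least 1 of the 2 Slco1a5 windows, GGCTTGGTATTGGTTGAAAG. Which of the 2 held it, or whether both did, was not recorded. Likeness of these windows was thus not limited to the 2 genes that were lower. The windows of Slco1b2, Slco1a1 and Slco1a6 did not hold the 14 bases. The 14 bases contain ATTGG, the inverted CCAAT box, which 33.8% of all windows held on either strand. AGGTCA, the half-site that thyroid hormone receptors share with other nuclear receptors, was in 14% of all windows. It was in none of the windows of Slco1c1, Slco1a4 and Thrsp, nor in that of Dio2, for which only the first listed start was read. These are matches of letters in a short window.

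Dio2 encodes the type 2 deiodinase, which removes an outer-ring iodine from T4 to make T3. All of its 3 probe sets had low signals. The brightest, 1418937_at, read 130.1, 225.3 and 489.0 on the cerebellar arrays, against 393.8, 554.6 and 587.1 on the neocortical arrays. Cerebellar array 3 lay within the neocortical range and the other 2 lay below it. Group means were 281.5 ± 185.9 on the cerebellar side and 511.8 ± 103.5 on the neocortical side (SD, n = 3 each), with a log2 difference of -1.05 ± 0.45 (SE) that did not pass (limma adjusted p = 0.178). Without cerebellar replicate 3 the log2 difference was -1.57 and passed (adjusted p = 0.0399), the only 1 of 14 alternatives in which it did.

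The other 2 probe sets of Dio2 gave log2 differences of -0.54 ± 0.38 for 1418938_at and -0.29 ± 0.39 for 1426081_a_at (SE, limma adjusted p = 0.408 and 0.696). Their groups overlapped, with signals of 124.4 to 266.4 on cerebellar and 183.0 to 359.3 on neocortical arrays. Both had group means within the dim range of the bacterial controls, which ended at 269.2. The 95% intervals of the log2 difference, -1.39 to 0.32 and -1.17 to 0.60, both spanned 0 and held changes of more than 2-fold downward, whereas that of 1418937_at, -2.08 to -0.03, lay just below 0 (unadjusted p = 0.0446 in the same limma fit).

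Thra encodes the main thyroid hormone receptor of the brain, and also a splice form that does not bind the hormone. Its brightest probe set, 1454675_at, read 5868, 7643 and 7073 on the cerebellar arrays, against 6935, 7413 and 7148 on the neocortical arrays. The neocortical range lay inside the cerebellar range. Group means were 6861 ± 906.1 on the cerebellar side and 7166 ± 239.3 on the neocortical side (SD, n = 3 each). The log2 difference was -0.07 ± 0.11 (SE, limma adjusted p = 0.743), with a 95% interval of -0.33 to 0.19, which excluded changes as large as those of the transporter genes.

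The dimmer probe sets of Thra gave log2 differences of 0.10 ± 0.19 for 1426997_at and 0.20 ± 0.23 for 1443952_at (SE, limma adjusted p = 0.79 and 0.642). Their 95% intervals ran from -0.33 to 0.53 and from -0.33 to 0.73. Which splice form each probe set reads is not given in the sources used here. Nr1d1, the clock repressor gene that lies beside Thra on the other strand, was tested with 1 probe set and did not pass (log2 difference -0.48 ± 0.23, SE, adjusted p = 0.217). Thrb, the receptor gene known for the feedback of the hormone in the pituitary, had 1 probe set, 1422202_at. It read 232.6, 114.9 and 106.3 on the cerebellar arrays and 192.9, 127.5 and 158.9 on the neocortical arrays. These values lay within the dim range and the groups overlapped. Thrb was below the filter on mean signal, and with no filter its log2 difference was -0.15 ± 0.38 (SE, limma adjusted p = 0.902).

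Thrsp, named for its response to thyroid hormone in liver and also called Spot 14, encodes a small protein that promotes fatty acid synthesis. Its brightest probe set, 1424737_at on chromosome 7, read 569.7, 379.2 and 390.4 on the cerebellar arrays, against 3638, 3168 and 4102 on the neocortical arrays. The highest cerebellar array was far below the lowest neocortical array. Group means were 446.4 ± 106.9 on the cerebellar side and 3636 ± 467.2 on the neocortical side (SD, n = 3 each). The log2 difference was -3.04 ± 0.19 (SE), or 8.25-fold lower with a 95% interval of 6.08-fold to 11.2-fold (limma adjusted p = 6.55e-05), and it ranked 38 of the 26815 probe sets by the size of the drop.

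A second Thrsp probe set, 1422973_a_at, had the same direction. It read 285.1, 200.6 and 317.2 on the cerebellar arrays, against 1116, 989.2 and 1781 on the neocortical arrays, without overlap. It was 4.77-fold lower in cerebellar astrocytes (log2 difference -2.25 ± 0.28, SE, limma adjusted p = 0.00164). Its cerebellar mean of 267.6 lay in the dim range, so the size of this fold is uncertain. The dimmest probe set, 1444166_at, read at most 99.6 on any array and was not tested.

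**Figure D3:**
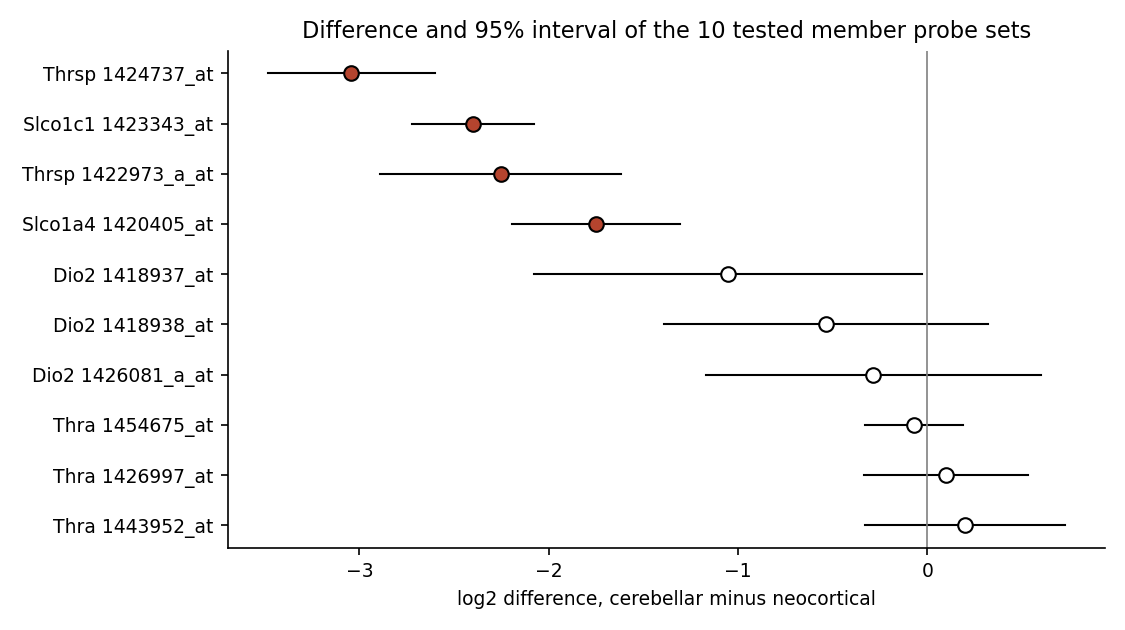
Log2 difference, cerebellar minus neocortical (x axis), of the 10 tested member probe sets, with 95% intervals of the moderated fit as lines. Filled points passed the threshold. The 4 filled points, of Thrsp, Slco1c1 and Slco1a4, lie between -3.04 and -1.75, and the intervals of the 3 Thra probe sets all span 0.

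The difference in these 3 genes did not rest on a single array or setting among those tried. Over 15 alternatives the log2 difference ran from -2.55 to -2.27 for Slco1c1, from -1.99 to -1.55 for Slco1a4 and from -3.23 to -2.95 for Thrsp 1424737_at. All 3 passed in every alternative, with adjusted p values of up to 0.00994 for Slco1c1, 0.0383 for Slco1a4 and 0.012 for Thrsp, each highest with no filter on low values.

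Most other genes of the pathway did not pass the test, but the share that passed was larger than over all genes. In the main fit 41 of 54 did not pass, against 10945 of all 12573 genes. The lists were chosen with earlier results of these data known. Of 80 further genes on 7 lists of the pathway, 54 were tested by their brightest probe set, and 5 of these were higher in the cerebellar group (5.44% of all 12573 genes were higher). A further 8 were lower (7.51% of all were lower). Their median log2 difference was -0.07, against -0.01 over all genes tested. For the unadjusted counts of the lists below, 1599 of all 12573 genes were higher and 1953 lower at an unadjusted p under 0.05 in limma. When each array was scaled by its median, none was higher and 13 were lower, so the split of these calls depended on the scaling. With that scaling, and also with the replicate block, the genes Slc7a5, Mid1ip1, Scd1 and Shh passed as lower, and Ppargc1a did so with median scaling.

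By their brightest probe sets, other thyroid hormone transporters did not pass in either direction. For Slco3a1 only 2 of its 3 tested probe sets shared this call. Of 6 tested in limma, none was higher or lower, and at an unadjusted p under 0.05 none was higher and 2 were lower (list median log2 difference -0.18). Slc7a5 and Slc3a2 encode the chains of an amino acid exchanger that also carries thyroid hormones. Slc7a5 read 2194, 2422 and 3265 on the cerebellar arrays, against 3708, 4044 and 3704 on the neocortical arrays, without overlap (adjusted p = 0.0511, and 0.0413 with the replicate block). Slc3a2 averaged 22221 ± 932.8 against 26754 ± 2734 (cerebellar against neocortical, SD, n = 3 each, limma adjusted p = 0.103). Of the organic anion transporters outside that list, only Slco1a5 and Slco2a1 of 10 were tested, and Slco2a1 did not pass (adjusted p = 0.622).

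Of 9 tested genes of hormone metabolism, binding and deiodinase turnover, 1 was lower and none was higher (median -0.13), with the same counts at an unadjusted p under 0.05 in limma. Txnrd1, a cytosolic thioredoxin reductase and, like the deiodinases, a selenoprotein, was 1.76-fold lower in cerebellar astrocytes (6456 ± 699.9 against 11333 ± 691, SD, n = 3 each, limma adjusted p = 0.00202), though with 1 of its 3 probe sets only. Marchf6, a ubiquitin ligase gene known to act on the type 2 deiodinase, was bright and gave a log2 difference of -0.13 (adjusted p = 0.457). Crym, which encodes a cytosolic protein that binds T3, gave 0.28 (adjusted p = 0.432). Dio1, the deiodinase of liver and kidney, was at the floor on all 6 arrays.

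Of 14 receptor partners and coregulators tested, 2 were higher and 1 was lower (median 0.09). At an unadjusted p under 0.05 in limma, 3 were higher and 2 were lower. Rxra, the retinoid X receptor that pairs with thyroid hormone receptors, was 1.57-fold higher in cerebellar astrocytes (1274 ± 165.0 against 807.2 ± 53.7, SD, n = 3 each, limma adjusted p = 0.035), with 1 of 2 probe sets. Tbl1xr1, a subunit of the corepressor complex, was 1.56-fold higher (adjusted p = 0.00633, with 2 of 5 probe sets), and the coactivator gene Ncoa1 was 1.49-fold lower (adjusted p = 0.0151). The Rxra and Tbl1xr1 calls were lost when each array was scaled by its median. With the mean of both its probe sets Rxra differed by 0.05 on the log2 scale, so its dimmer probe set was lower in the cerebellar group.

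Genes known to answer to the hormone passed in both directions. Of 12 tested genes that thyroid hormone is known to raise in brain or liver, 3 (Dbp, Gbp3 and Me1) were lower and 1 was higher on the cerebellar side, with a median of -0.54. At an unadjusted p under 0.05 in limma, 6 of the 12 were lower and 2 were higher. Dbp, a clock-output factor, was 2.06-fold lower (6196 ± 435.0 against 12771 ± 652.1, SD, n = 3 each, limma adjusted p = 0.000298). The guanylate-binding gene Gbp3 was 2.08-fold lower (adjusted p = 0.0418) and the guidance gene Sema3c 1.42-fold higher (adjusted p = 0.0189). The Sema3c call came from 1 of 2 probe sets and was lost with their mean (log2 difference 0.22, adjusted p = 0.409) and with median scaling (0.28, adjusted p = 0.293).

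Of 3 tested genes known to be lowered by thyroid hormone in brain, Mamdc2 and Aldh1a1 were lower in cerebellar astrocytes, by 1.96-fold each, and none was higher, also at an unadjusted p under 0.05 in limma. Aldh1a1, a retinaldehyde dehydrogenase, lay near the threshold (limma adjusted p = 0.0496). It did not pass in 12 of 17 alternatives, among them the replicate block (0.0539).

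Of 10 tested lipogenic genes beside Thrsp, 2 were lower and 1 was higher, and the median of the list with Thrsp was -0.39. With Thrsp, 6 of 11 were lower and 1 was higher at an unadjusted p under 0.05 in limma. Me1, the malic enzyme that supplies reducing power to fat synthesis and is itself raised by thyroid hormone in liver, was 1.79-fold lower in cerebellar astrocytes (3929 ± 329.0 against 7063 ± 859.5, SD, n = 3 each, limma adjusted p = 0.00314). The fatty acid elongase gene Elovl6 was 1.54-fold lower with 1 of 3 probe sets (adjusted p = 0.0408). Srebf1, the transcription factor gene of lipid synthesis, was 1.29-fold higher (adjusted p = 0.0274). Mid1ip1, the closest relative of Thrsp, read 19314, 29108 and 23457 on the cerebellar arrays and 31336, 33841 and 30074 on the neocortical arrays, without overlap (log2 difference -0.42 ± 0.14, SE, limma adjusted p = 0.0822, and 0.0298 with the replicate block). Of the 13 pathway genes that passed, Dbp and Me1 were the 2 that passed in all 17 alternatives. Txnrd1 and Tbl1xr1 were lost in 1 alternative each, and the other 9 in 4 to 12.

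**Figure D4:**
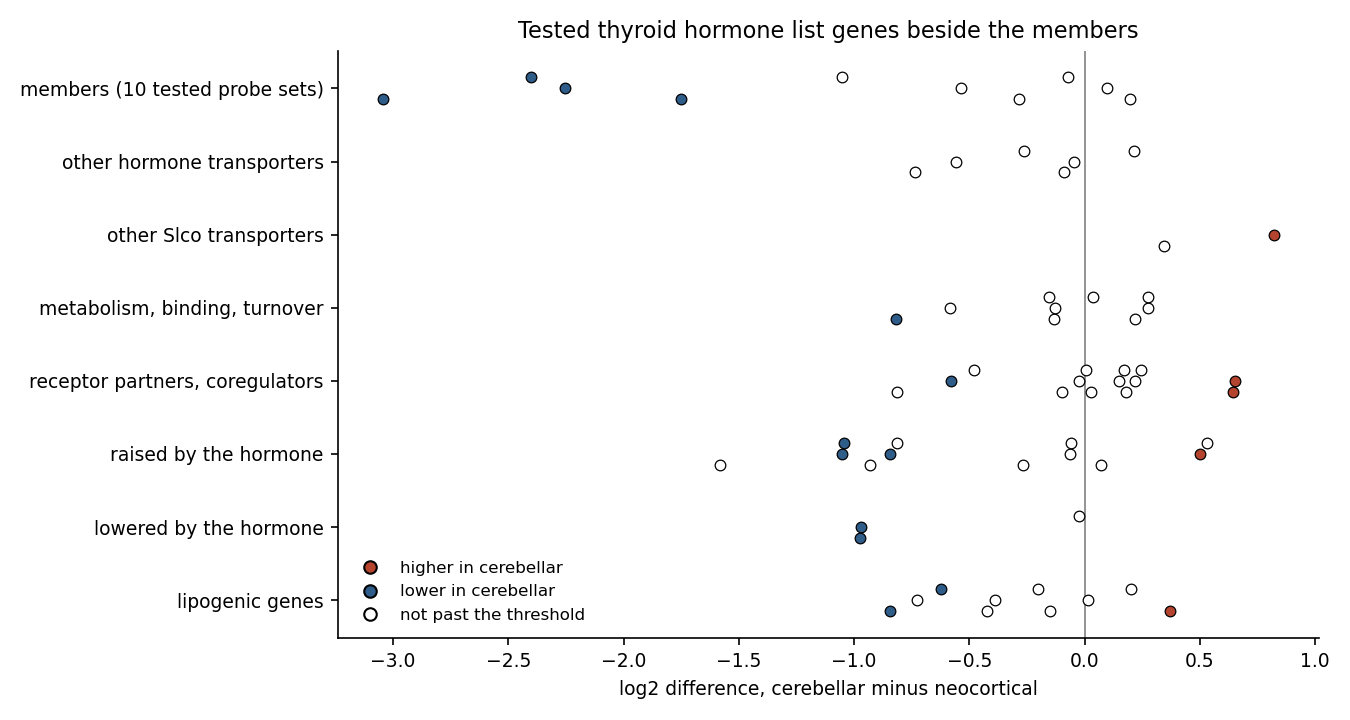
Log2 difference, cerebellar minus neocortical (x axis), of the 10 tested member probe sets (top) and of the tested genes of 7 pathway lists, each gene by its brightest probe set and with vertical scatter for legibility. Blue points were lower and red points higher in cerebellar astrocytes. The member points at -3.04 to -1.75 lie below every listed gene, the lowest of which is Shh at -1.58. Thrsp is drawn among the members and left out of the lipogenic row.

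The genes whose signal followed the members most closely over the 6 arrays were found by Pearson's r of log2 signal, into which the difference between the groups enters. For Slco1c1 they were Fads2 (r = 0.9997), Amz2 (0.998) and Enpp4 (0.995), and 384 of 12285 genes had an r over 0.95. For Slco1a4 they were Smpdl3a (0.998), Rab28 (0.998) and Sybu (0.997), with 357 genes over 0.95. For Thrsp they were Cntnap2 (0.999), Ebpl (0.998) and Mien1 (0.997), with 376 over 0.95. Thra was followed by Rsph1 (0.996), Tril (0.994) and Ulk4 (0.988), with 44 genes over 0.95, and Dio2 by Lbhd2 (0.994), Poglut3 (0.989) and Ripor2 (0.986), with 25. With so many genes at a like r, these names describe the 6 arrays only.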

How the data were processed

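The values were 1 intensity per probe set and array, deposited by the authors on a linear scale. How probes were summarised, and with what software, is not given in the labels. Trimmed by 2% at each end, the mean deposited intensity was 1500 on every array, while medians ran from 284.7 to 361.2, a spread of 26.9% that exceeded the limit of 10% for use as deposited. The 45037 probe sets other than 64 controls were therefore quantile normalized, and values under 62.2 (the 20th percentile, the floor) were raised to it before taking log2. The 26815 with a mean of at least 188.0, the 40th percentile of all values, entered a two-sided test in limma 3.58.1 under R 4.3.3 (lmFit, then trended eBayes, without a replicate block) with Benjamini-Hochberg adjustment at 0.05. The fit was tested on simulated data.

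Means ± SD are of normalized signal in arbitrary units. Folds come from log2 differences of floored values and understate those of dim genes. The dim range is that of 24 bacterial control probe sets as deposited, 2.9 to 269.2. Precision is limited by having 3 arrays a group. Genes were named by the platform annotation and updated by Entrez ID to RefSeq GRCm38.p6, which also gave the chromosomes. In it 34945 probe sets had 1 symbol, 932 several and 9160 none. The brightest probe set stood for each list gene. Every member probe set was named. Of each pathway list, up to 6 genes past the threshold were named, with the 2 brightest where under 2 passed, and of each marker list up to 3 and the 2 brightest, besides the nearest relatives and neighbours of members. Col1a1, Cdh5, Esam and Slco3a1 were named after their values were seen. The 7 members and the lists were chosen with earlier results of these data known.

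Same-numbered arrays of both groups deviated together from their group means (correlations of 0.105 to 0.188, against -0.186 to 0.0265 for other pairs), so a fit with the replicate number as a block was run. The other alternatives were the scaling, floor, filter, variance trend, choice of probe set and leaving out each array.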

Additional observations from a re-analysis of the deposited data

How the results depend on the processing

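The 4 calls among member probe sets were made in all 15 alternatives, with 4 to 5 lower and none higher when an array was left out, and 4 lower with the replicate block. Among members and pathway genes the block changed no call other than those of Aldh1a1, Slc7a5, Mid1ip1, Scd1 and Shh. The Thra differences, none past the threshold, changed sign when an array was left out, at -0.15 to 0.038 for 1454675_at (above 0 without cerebellar replicate 1), -0.011 to 0.25 for 1426997_at (below 0 without cerebellar replicate 2) and -0.030 to 0.45 for 1443952_at (below 0 without neocortical replicate 2). Over all probe sets, 1339 were higher and 1568 lower. Higher calls numbered 818 with median scaling, which moved the median of all probe sets to -0.10 from 0.01, 577 with no filter and 693 with no variance trend, and 549 to 1246 when an array was left out. Lower calls numbered 2126 with median scaling, 704 with no filter, 943 with no variance trend and 665 to 1560 when an array was left out. Of the pathway list genes, 5 higher calls became 0 with median scaling, 1 with no filter, 2 with no variance trend, 3 when a gene's probe sets were averaged and 1 to 4 when an array was left out. The 8 lower calls became 13 with median scaling, 3 with no filter, 3 with no variance trend and 3 to 9 when an array was left out, being 3, 3 and 5 without neocortical replicates 1, 2 and 3. The cause was not tested. The dim signal of Dio2 and Thrb limits what can be said of them.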

Other observations

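Dio3os, the transcript of the opposite strand at the locus of the inactivating deiodinase, was measured with 1 probe set. It read 1085, 829.7 and 766.0 on the cerebellar arrays and 1015, 841.3 and 900.5 on the neocortical arrays. The groups overlapped and the log2 difference was -0.05 ± 0.19 (SE, limma adjusted p = 0.895). It gives no value for Dio3 itself.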
